A study of Mus musculus with 3 samples.

Results

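The endoplasmic reticulum folding genes described here are 40 genes chosen by symbol: chaperones and their cochaperones, disulfide bond enzymes, glycoprotein quality control factors, prolyl isomerases, stress sensors, degradation factors and subunits of the protein channel into the reticulum. Every probe set (a group of short oligonucleotides on the array) that the platform annotation gives to one of these symbols was taken, which gave 93 probe sets. Of the 40 genes, 39 had a probe set of their own and 38 passed the filter on dim probe sets, against 11092 genes compared in all. Sec61g shared its probe set with other genes and has no value. Derl3 had 1 dim probe set just under the filter, at 12.3 in the oil array, 20.7 in the 24 h tamoxifen array and 10.8 in the 48 h tamoxifen array. The rule uses no reading.

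The study measured gastrocnemius, a fast calf muscle, of C57BL/CD1 mice labelled Akt_Cre transgenic, on 3 Affymetrix whole-genome mouse arrays. These mice carry Akt joined to the estrogen receptor's hormone-binding domain, made in skeletal muscle only per the labels, and tamoxifen stabilises the fusion protein and raises Akt signalling. The control group received oil and was taken at 24 h, and the treated groups received tamoxifen and were taken at 24 h or 48 h. Each group has 1 array, hybridised with RNA pooled from 3 to 4 mice. All 3 groups carry the transgene, and tamoxifen in mice without the fusion was not analysed here. The labels give no oil group at 48 h, so time and treatment cannot be told apart in the 48 h against oil ratios. The comparisons ask how the muscle's transcripts stand after Akt signalling has been raised for 24 h or 48 h. The age of the mice and the promoter that drives the fusion are not given in the sources used here.

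Secreted and membrane proteins enter the endoplasmic reticulum through the Sec61 channel and are folded there by chaperones such as BiP, by enzymes that form disulfide bonds and by a lectin cycle that reads their sugar chains. When unfolded protein accumulates, the sensors IRE1, ATF6 and PERK switch on the unfolded protein response, whose transcription factors induce chaperones and the machinery that returns failed proteins to the cytosol for degradation. In muscle fibres the reticulum is specialised as the sarcoplasmic reticulum, which stores calcium for contraction, and protein synthesis rises when Akt signalling drives growth.

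Since each group is a single array, no value below has a replicate spread, a test or a p-value. A gene is called higher or lower here when its scaled intensity differs at least 2-fold between 2 arrays, and a rule of 1.5-fold, chosen after the data were seen, is given beside it. The only available yardstick is technical: probe sets of the same gene differed in log2 ratio by 0.476 (within-gene SD over 5001 genes with at least 2 kept probe sets) for 24 h against oil, 0.41 for 48 h against oil and 0.433 for 48 h against 24 h. This SD holds no variation between mice. Both tamoxifen comparisons share the single oil array, so a low or high oil reading moves both. Log2 readings of the kept probe sets correlated at 0.954 to 0.967 between arrays, as a description. In whole muscle, fewer cells of a type and less RNA per cell cannot be told apart.

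Most folding genes read higher on both tamoxifen arrays, by modest amounts, with BiP (Hspa5), Manf, Pdia4 and Ssr2 past 2-fold at 48 h. The log2 ratio to oil was above 0 for 30 of the 38 genes at 24 h (78.9%) and for 32 of 38 at 48 h (84.2%), where the share over all genes compared was 54% and 50.6%. The median log2 ratio of the 38 genes was 0.29 at 24 h and 0.44 at 48 h, against 0.04 and 0.01 over all genes. Between 24 h and 48 h of tamoxifen, 26 of 38 genes read higher (68.4%, against 46.9% of all genes), with a median log2 ratio of 0.13 against -0.02. That last direction depends on the scaling of the arrays: the median was -0.030 on unscaled values and -0.089 with arrays scaled on all probe sets, where the median of all genes was -0.18 and -0.24. In these 2 settings the median of all genes at 24 h against oil moved to 0.13 and 0.33. The folding genes lay 0.25 above it in each, as in the setting reported here. These settings differ only by a constant factor per array, which shifts both medians alike, so this distance could not change.

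**Figure D1:**
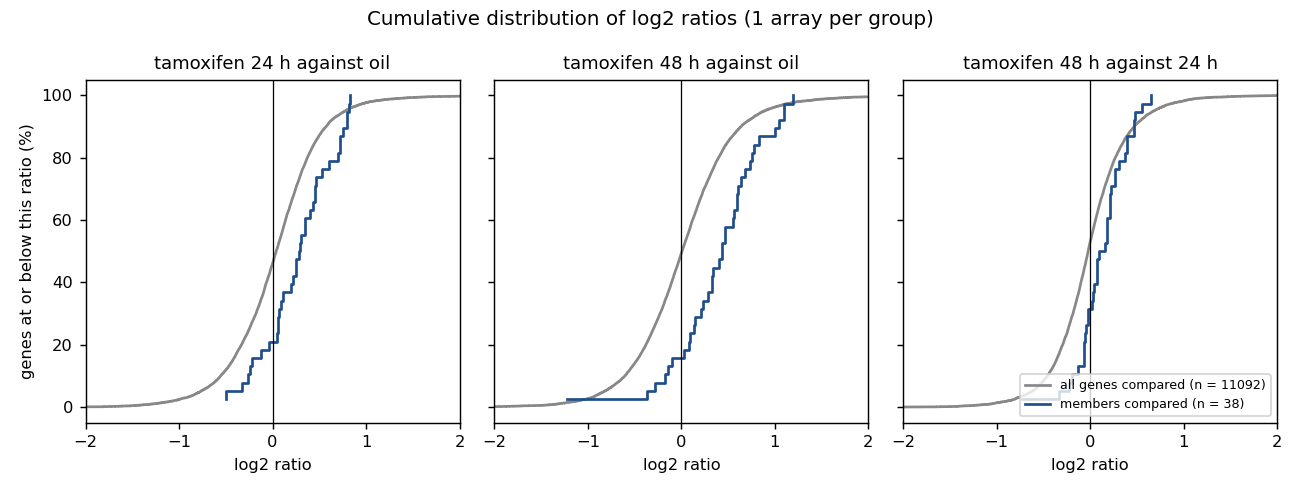
Cumulative share of genes (%, vertical axis) at or below each log2 ratio (horizontal axis) for the 38 folding genes and for all 11092 genes compared, in each of the 3 array comparisons with 1 array per group. At the middle of each panel the folding genes lie to the right of all genes. Their medians are 0.29, 0.44 and 0.13, against 0.04, 0.01 and -0.02 over all genes. At 24 h no folding gene is 2-fold higher or lower, where only 2.35% and 2.48% of all genes are. Between the times none is either, where 1.8% and 1.42% of all genes are.

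At 24 h no folding gene was 2-fold higher or lower, where 2.35% of all genes were higher and 2.48% lower (3.27% and 1.86% on unscaled values). With arrays scaled on all probe sets, a setting added after the data were seen, 7 were at least 2-fold higher at 24 h, Dnajb11, Manf, Pdia4, Pdia6, Sec61b, Ssr2 and Ssr3, where 6.32% of all genes were. At 48 h 4 were at least 2-fold higher, Hspa5, Manf, Pdia4 and Ssr2, against 3.72% of all genes. Ero1lb, one of a pair of oxidases that recharge protein disulfide isomerase, was the 1 gene at least 2-fold lower, against 2.71% of all genes. Over the 13 processing settings tried, Ssr2 was past 2-fold at 48 h in 13, Hspa5 in 12 and Manf in 9. Pdia4 was past it in 10 of the 12 that kept it and Ero1lb in 10 of the 11 that kept it. These counts do not measure robustness, because the filter and symbol settings leave the ratio of a kept gene as it is. Averaging also cannot change Ssr2, Manf, Pdia4 or Ero1lb, with 1 kept probe set each. The log2 ratio of Manf ran from 0.962, just under 2-fold, to 1.12, so its call depends on the processing. None of the 38 differed 2-fold between 48 h and 24 h, where 1.8% of all genes were higher and 1.42% lower. Under the 1.5-fold rule 9 of 38 genes were higher at 24 h (23.7%, against 9.57% of all genes) and none was lower (against 9.02%). By the same rule 14 were higher at 48 h (36.8%, against 11.7%) and 1 was lower (against 10.7%). Between the tamoxifen arrays, 1 gene, Txndc5, was 1.5-fold higher at 48 h (against 6.91% of all genes) and 1, Ero1lb, was 1.5-fold lower (against 5.84%).

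The order of the 3 arrays was alike for many of these genes. Oil was the lowest array for 30 of 38, against 40% of all genes. Readings stood in the order oil, 24 h, 48 h for 21 of 38 genes (55.3%), against 21.5% of all genes. Oil was the highest array for 6, Pdia5, Ero1lb, Ern1, Herpud1, Edem1 and Os9, against 35.5% of all genes. Of these 6, 4 are sensors or degradation factors and 2 are disulfide bond enzymes, and no lumenal chaperone, glycoprotein cycle or channel gene is among them. Over 5 ways to scale the arrays, 29 of the 38 genes read above oil at 48 h in each, 6 read below it in each, and Canx, Creld2 and Derl1 changed side. At 24 h 25 read above oil in each and 3 below, and 10 changed side: Calr, Canx, Derl1, Dnajb9, Edem1, Ern1, Herpud1, Ppib, Sel1l and Syvn1. From 24 h to 48 h 13 read higher in each scaling, 11 read lower in each, and 14 changed side. These 14 were Atf6, Derl1, Edem1, Ero1l, Hsp90b1, Manf, Os9, P4hb, Pdia6, Ppib, Sec61a1, Ssr1, Ssr3 and Xbp1. For them the order of the 2 tamoxifen arrays depends on the scaling.

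**Figure D2:**
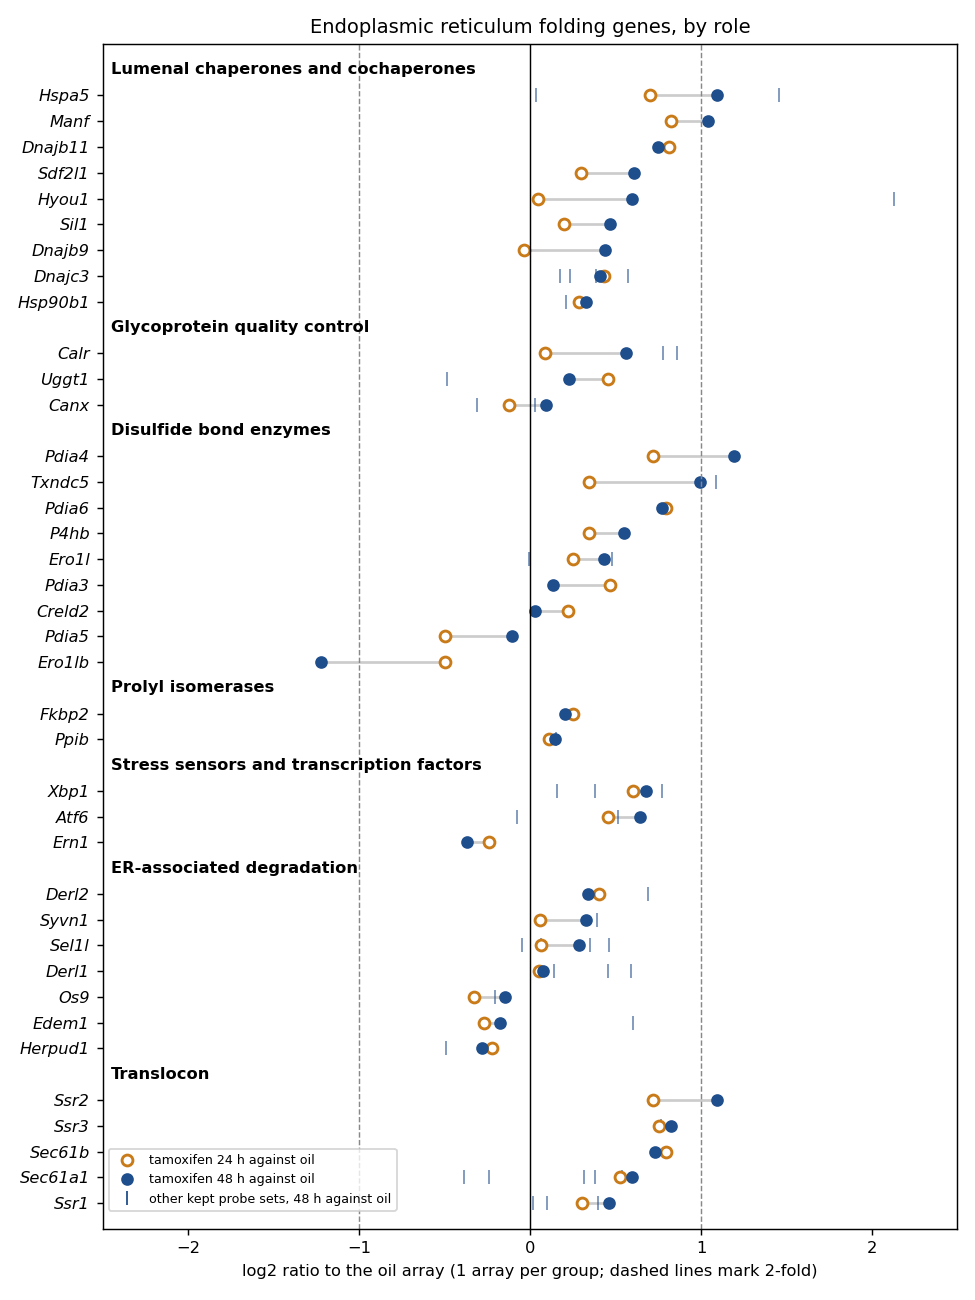
Log2 ratio to the oil array (horizontal axis) of the 38 folding genes, grouped by role, at 24 h and 48 h of tamoxifen, with 1 array per group and dashed lines at 2-fold. Hspa5, Manf, Pdia4 and Ssr2 pass the upper line at 48 h, Ero1lb passes the lower line, and most other points lie between 0 and 1.

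Several promoters of these genes share a sequence. The genes were chosen by name, but the list holds classical genes of this element, so its share among them is not independent of the choice. The endoplasmic reticulum stress element (ERSE) is bound by ATF6 together with NF-Y, and by XBP1, and was searched on both strands as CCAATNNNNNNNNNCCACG in the 250 bases before each annotated transcript start (RefSeq, GRCm38.p6). Of the 40 genes, 33 had a promoter entry; Atf6, Derl1, Hyou1, Manf, Sec61a1, Sil1 and Ssr2 had none. ERSE occurred in the windows of 10 of the 33 genes (30.3%) and in 37 of all 32851 windows (0.113%). Among the 9009 genes both compared on the arrays and present in the promoter table, 13 held it (0.144%), 9 of them folding genes. A match describes the letters and does not show a bound site. The matches are shown to let the spacing and the conserved ends be compared, each with 12 bases on either side, read in the CCAAT direction, with the 2 conserved ends in capitals:
Hspa5 (chr2:34772013-34772055, plus strand): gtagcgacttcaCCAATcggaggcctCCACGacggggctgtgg
Hsp90b1 (chr10:86705626-86705668, minus strand): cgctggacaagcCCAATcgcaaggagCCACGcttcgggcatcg
Hsp90b1 (chr10:86705521-86705563, plus strand): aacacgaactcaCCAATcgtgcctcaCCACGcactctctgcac
Calr (chr8:84847063-84847105, plus strand): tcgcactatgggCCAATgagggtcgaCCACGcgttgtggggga
Canx (chr11:50325788-50325830, minus strand): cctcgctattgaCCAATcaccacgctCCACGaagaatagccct
Pdia6 (chr12:17266479-17266521, plus strand): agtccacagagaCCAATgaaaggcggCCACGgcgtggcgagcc
Dnajc3 (chr14:118937815-118937857, plus strand): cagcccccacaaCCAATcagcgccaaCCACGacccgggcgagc
Creld2 (chr15:88819508-88819550, minus strand): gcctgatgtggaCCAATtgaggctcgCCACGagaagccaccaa
Syvn1 (chr19:6046520-6046562, plus strand): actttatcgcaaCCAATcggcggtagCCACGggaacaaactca
Derl3 (chr10:75893230-75893272, minus strand): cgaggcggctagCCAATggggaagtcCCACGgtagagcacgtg
Ero1lb (chr13:12565670-12565712, minus strand): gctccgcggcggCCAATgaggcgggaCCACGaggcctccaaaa

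The match began 65 bases before the start in Hspa5, at -65 to -47, and lay at -98 to -80 in Pdia6, -105 to -87 in Dnajc3 and -145 to -127 in Canx. Hsp90b1 held 2 matches, at -212 to -194 on the gene's strand and at -107 to -89 on the opposite strand. The match nearest to a start was in Syvn1, at -44 to -26, and the one that reached farthest upstream besides Hsp90b1 was in Ero1lb, at -201 to -183. The 9 compared genes with the element had a median log2 ratio of 0.22 at 24 h and 0.33 at 48 h, and 8 of 9 read above oil at 48 h. The 22 compared folding genes with a promoter entry and no match had medians of 0.30 and 0.39, and 17 of 22 read above oil at 48 h. The 1 gene with it that read below oil at 48 h was Ero1lb.

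The whole windows of Hspa5 and Hsp90b1 are shown because these are the classical genes of this element, with 1 and 2 matches; in Hsp90b1 the second match reads in reverse, as CGTGG before ATTGG:
Hspa5 (chr2:34771840-34772089, plus strand): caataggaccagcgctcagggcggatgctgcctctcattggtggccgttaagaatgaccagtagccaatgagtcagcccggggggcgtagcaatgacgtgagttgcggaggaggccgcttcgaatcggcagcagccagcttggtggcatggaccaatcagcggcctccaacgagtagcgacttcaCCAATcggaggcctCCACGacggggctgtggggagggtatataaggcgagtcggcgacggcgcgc
Hsp90b1 (chr10:86705445-86705694, minus strand): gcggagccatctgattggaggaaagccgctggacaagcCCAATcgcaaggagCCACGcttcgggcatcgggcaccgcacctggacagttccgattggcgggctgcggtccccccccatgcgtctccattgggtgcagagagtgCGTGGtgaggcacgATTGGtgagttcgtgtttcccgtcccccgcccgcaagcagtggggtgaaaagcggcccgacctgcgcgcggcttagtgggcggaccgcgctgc

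With the last letter of ERSE left free, a form chosen after the data were seen, the search found 105 of all windows (0.32%). It found 14 of the 33 folding genes, adding Derl2, Herpud1, Pdia3 and Pdia4. Among the 9009 genes compared and present in the promoter table, 35 held this form (0.39%), 13 of them folding genes. The 13 compared genes with this form had medians of 0.29 at 24 h and 0.33 at 48 h, and the 18 with an entry and without it had 0.27 and 0.44, so the order of the 24 h medians with and without a match turned with the form searched. The Pdia4 match is shown because Pdia4 had the highest ratio at 48 h of the 38 genes. ERSE-II, a related element searched as ATTGGNCCACG, occurred in 10 of all windows (0.0304%) and in 6 of the 9009 genes (0.0666%). The 1 folding gene that held it was Herpud1, at -52 to -42. The core of the unfolded protein response element, which XBP1 and ATF6 can bind, was searched as TGACGTGG. It occurred in 185 windows (0.563%) and in 86 of the 9009 genes (0.955%). The 1 folding gene that held it was Txndc5, at -138 to -131 of 1 of its 3 annotated starts. These 3 matches are shown with 12 bases on either side and the fixed letters in capitals:
Pdia4 (chr6:47813590-47813631, plus strand): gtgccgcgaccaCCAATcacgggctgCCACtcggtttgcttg
Herpud1 (chr8:94386365-94386399, plus strand): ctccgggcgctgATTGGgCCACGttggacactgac
Txndc5 (chr13:38528033-38528064, minus strand): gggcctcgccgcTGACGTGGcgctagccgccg

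**Figure D3:**
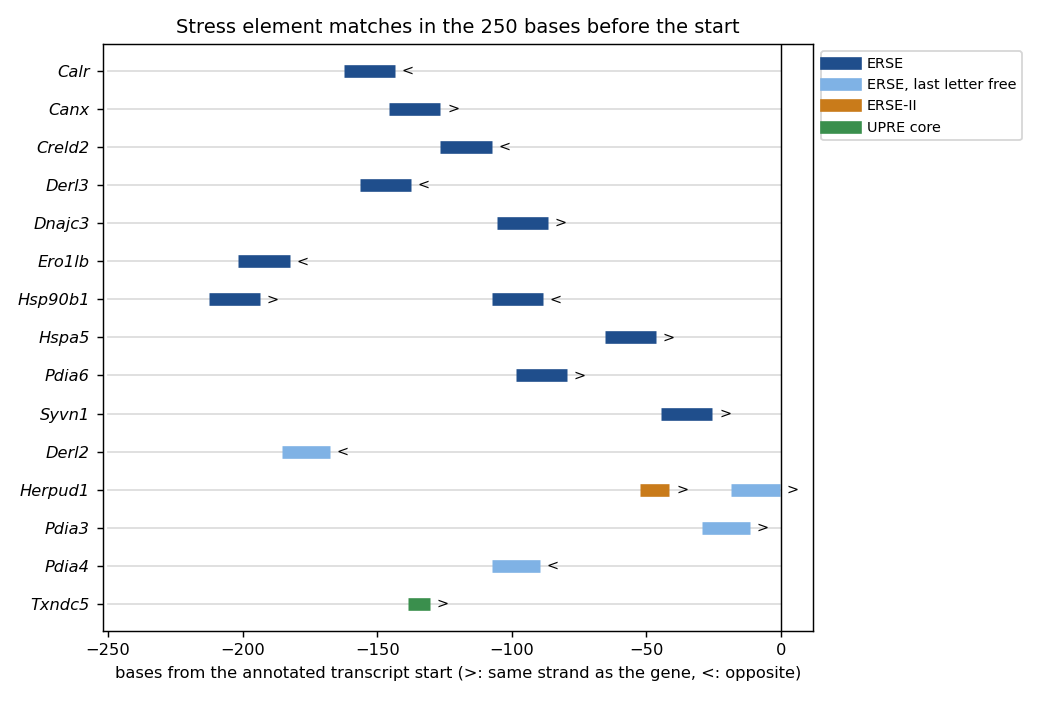
Position of each element match in bases from the annotated transcript start (horizontal axis) in the 250 bases before it, 1 line per folding gene with a match; arrowheads give the strand relative to the gene. Exact ERSE matches lie between -212 (Hsp90b1) and -26 (Syvn1).

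The chaperones that hold unfolded chains read higher, led by BiP. Hspa5, the reticulum's HSP70 and a classical marker of the unfolded protein response, read 858 in oil, 1396 at 24 h and 1834 at 48 h, which is 1.63-fold and 2.14-fold of oil. The 3 arrays stood in the order oil, 24 h, 48 h on this probe set. Its log2 ratio was 0.70 for 24 h against oil and 0.39 for 48 h against 24 h. A second Hspa5 probe set read 593, 998 and 1626, with log2 ratios to oil of 0.75 and 1.45, and of 0.70 for 48 h against 24 h. The third, of a type whose probes may cross-hybridise, read 156, 145 and 159 and was flat (-0.11 and 0.03). Hsp90b1 (GRP94), the reticulum's HSP90, read 514 in oil, 627 at 24 h and 645 at 48 h, 1.22-fold and 1.25-fold of oil, which is within the technical SD. Hyou1, a large HSP70 relative that exchanges the nucleotide of BiP, read 81.9, 84.6 and 124, near oil at 24 h and 1.52-fold at 48 h. Its other kept probe set ran from 10.9 through 26.7 to 47.5, log2 ratios of 1.3 and 2.13, so both were highest at 48 h but differed in size. Sil1, the other exchange factor of BiP, read 94.2, 108 and 130, 1.38-fold of oil at 48 h.

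The J-domain cochaperones, which bring clients to BiP and start its ATP cycle, did not follow a single course. Dnajb11 (ERdj3) read 98.2 in oil, 173 at 24 h and 165 at 48 h, 1.76-fold and 1.68-fold of oil. Both tamoxifen arrays were above oil and level with each other. Dnajc3 (P58IPK) read 201, 271 and 267, 1.35-fold and 1.33-fold, and all 5 of its kept probe sets were above oil at 48 h, with log2 ratios from 0.18 to 0.57, and they ran from -0.10 to 0.996 at 24 h. Dnajb9 (ERdj4), which also restrains IRE1, read 1079, 1051 and 1460, 0.975-fold at 24 h and 1.35-fold at 48 h, so only the 48 h array stood apart. Sdf2l1, a partner of the ERdj cochaperones, read 21.6, 26.6 and 33.0, 1.52-fold of oil at 48 h. Manf, a secreted protein that binds BiP and is induced by reticulum stress, read 254 in oil, 451 at 24 h and 522 at 48 h. That was 1.77-fold and 2.06-fold of oil on the 1 probe set it has. The median log2 ratio of these 9 chaperones and cochaperones was 0.30 at 24 h and 0.60 at 48 h.

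**Figure D4:**
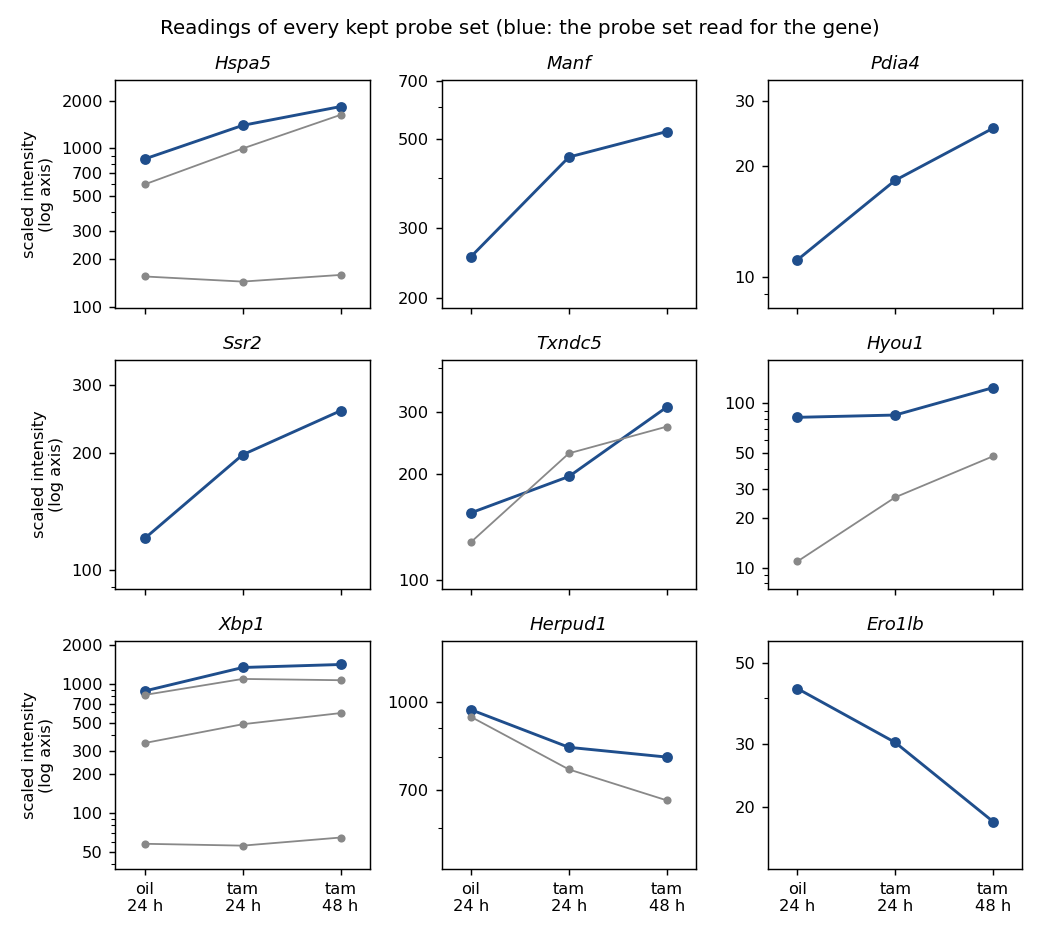
Scaled intensity (vertical log axis) in the oil, 24 h tamoxifen and 48 h tamoxifen arrays, 1 array each, of every kept probe set of 9 folding genes; blue is the probe set used for the gene and grey the others. Hspa5 runs from 858 to 1834 on the blue line while 1 grey line stays level, and Ero1lb runs from 42.6 down to 18.2.

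The lectin cycle, in which calnexin and calreticulin hold glycoproteins and UGGT1 marks the unfolded ones for another round, had no common course at 24 h. Calr, the lumenal lectin and a calcium buffer, read 724 in oil, 769 at 24 h and 1070 at 48 h, 1.06-fold and 1.48-fold of oil, and its other kept probe sets, both of the type whose probes may cross-hybridise, gave log2 ratios of 0.38 and 0.35 at 24 h and 0.86 and 0.78 at 48 h. Canx, the membrane lectin, read 605, 555 and 645, 0.918-fold and 1.07-fold of oil, a spread smaller than the technical SD, and its 3 kept probe sets ran from -0.31 to 0.09 at 48 h. Uggt1 gave no single course: its brighter probe set read 65.8, 90.1 and 77.1, and its other kept one read 71.9, 16.6 and 51.4. At 24 h the log2 ratio was 0.45 for the first and -2.11 for the second. The group median was 0.09 at 24 h and 0.23 at 48 h.

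Among the disulfide bond enzymes most isomerases read higher at 48 h and one of the oxidases that drive them read lower. Pdia4 (ERp72), an isomerase with several thioredoxin-like domains, read 11.1 in oil, 18.3 at 24 h and 25.4 at 48 h, 1.65-fold and 2.28-fold. It was the highest ratio of the 38 genes at 48 h, from a dim probe set. Pdia6 (P5) read 139, 242 and 238, 1.74-fold and 1.71-fold, with both tamoxifen arrays level. P4hb, the founding protein disulfide isomerase and a subunit of collagen prolyl hydroxylase, read 925, 1174 and 1356, 1.27-fold and 1.47-fold. Txndc5 (ERp46) read 155, 196 and 309, so 48 h stood apart at just under 2-fold (log2 0.997), and its other kept probe set read 128, 229 and 272 (log2 0.84 and 1.09). Pdia3 (ERp57), which works with the lectins, read 355, 491 and 389, highest at 24 h. Pdia5 read 56.4, 39.9 and 52.5, lowest at 24 h. Creld2, a stress-induced protein of this pathway, stayed close to oil at 69.1, 80.5 and 70.6.

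The oxidases diverged. Ero1l (Ero1a in the current annotation), the widely expressed form, read 58.9, 70.2 and 79.6, with log2 ratios of 0.25 and 0.43, and its 3 kept probe sets ran from -0.0064 to 0.48 at 48 h. Ero1lb (now Ero1b), the form best known from pancreas, read 42.6 in oil, 30.2 at 24 h and 18.2 at 48 h. The oil array was highest and the 48 h array lowest, 2.34-fold below oil. Its dimmer probe sets failed the filter: 1 ran the same way, at 9.81, 5.0 and 3.40, and the other ran opposite, at 1.26, 5.18 and 6.04, close to or below the intensity floor of 4.05. The median of the disulfide group was 0.34 at 24 h and 0.43 at 48 h. The prolyl isomerases, which speed turns at proline and in collagen, differed little from oil: Ppib (cyclophilin B) read 523, 565 and 579, and Fkbp2 read 104, 124 and 120.

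Of the stress sensors and their transcription factors, Xbp1 and Atf6 read higher and Ern1 did not. Xbp1, whose mRNA IRE1 splices into the active form, read 878 in oil, 1335 at 24 h and 1409 at 48 h, 1.52-fold and 1.6-fold. The 24 h and 48 h readings were level and above oil. Its 4 kept probe sets had log2 ratios of -0.05 to 0.60 at 24 h and 0.16 to 0.77 at 48 h, and these values do not separate spliced from unspliced mRNA. Atf6, which is cut in the Golgi to release a transcription factor, read 69.6, 95.6 and 109, 1.37-fold and 1.56-fold, while its other kept probe sets gave 0.51 and -0.08 at 48 h. Ern1, which encodes IRE1, read 135, 115 and 105, with log2 ratios of -0.24 and -0.37.

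The degradation factors read close to oil, in both directions, on the probe sets used, though their other probe sets often differed. The median log2 ratio of this group was 0.05 at 24 h and 0.08 at 48 h, the lowest of the 7 roles at each time. Herpud1, a membrane scaffold of the ubiquitin ligase complex that is a strong target of the unfolded protein response in other settings, read 969 in oil, 832 at 24 h and 799 at 48 h. Oil was its highest array, and its other kept probe set was also below oil (-0.31 and -0.49). Among the ligase subunits, Sel1l read 266, 279 and 324 and Syvn1 (HRD1) read 141, 147 and 177, both highest at 48 h by log2 0.29 and 0.33. The 5 kept probe sets of Sel1l spanned -0.32 to 0.62 at 24 h and -0.04 to 0.46 at 48 h. Of the derlins, candidate parts of the exit channel, Derl1 read 876, 910 and 924 and Derl2 read 160.5, 213 and 203. Other kept probe sets stood farther above oil: those of Derl1 reached log2 0.58 at 24 h and 0.59 at 48 h, and that of Derl2 gave 0.61 and 0.69. Of the lectins that pick out failed glycoproteins, Edem1 read 78.6, 65.3 and 69.5, and Os9 read 108, 86.1 and 97.6, both highest in oil. The other kept probe set of Edem1 was above oil (0.54 and 0.60), and that of Os9 was above it at 24 h and below it at 48 h (0.35 and -0.21), so these directions depend on the probe set.

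The genes of the protein channel read higher as a group, with the highest median of the 7 roles at both times, 0.72 at 24 h and 0.73 at 48 h. Ssr2, the beta subunit of the translocon-associated protein complex that helps chains into the channel, read 120 in oil, 198 at 24 h and 257 at 48 h. The arrays stood in the order oil, 24 h, 48 h, at 1.64-fold and 2.13-fold of oil, on 1 probe set. Ssr3, the gamma subunit, read 965, 1627 and 1710, 1.69-fold and 1.77-fold, and its other kept probe set, of the type that may cross-hybridise, read 682, 1546 and 1160. Ssr1, the alpha subunit, read 179, 220 and 246, with log2 ratios of 0.30 and 0.46, and its 4 kept probe sets spanned -0.49 to 0.30 at 24 h and 0.02 to 0.46 at 48 h. Sec61b, a small subunit of the channel, read 632, 1095 and 1050, 1.73-fold and 1.66-fold, with both tamoxifen arrays level and above oil. Sec61a1, which forms the pore, read 124, 178 and 187, 1.44-fold and 1.52-fold. Its 6 kept probe sets did not share a sign: they ran from -0.68 to 0.52 at 24 h, with a mean of -0.058, and from -0.39 to 0.60 at 48 h.

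Agreement between probe sets limits the single-gene values. Of the 22 folding genes with at least 2 kept probe sets, 12 had all of them on one side of oil at 24 h and 15 at 48 h, 11 and 13 of these above it, where 26% and 28% of all such genes had every probe set above oil. The share with 1 sign was 54.5% and 68.2%, against 49.4% and 56.2% of all such genes. Over the 81 kept probe sets of these genes, 61 read above oil at 24 h and 66 at 48 h, against 51.6% and 49.8% of all kept probe sets with 1 gene. Past 2-fold above oil lay 2 of the 81 at 24 h and 7 at 48 h, against 2.45% and 3.91% of all such probe sets. Past 2-fold below lay 1 at each time, against 4.19% and 3.1%.

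Other genes of the same compartment and of neighbouring steps were read from lists chosen by function, and within them genes past 2-fold are named. Over all genes compared, 54% read above oil at 24 h and 50.6% at 48 h, and 30 and 32 of the 38 folding genes did. Of 27 further lumenal folding genes compared, none was 2-fold different from oil at either time. Above oil were 15 at 24 h and 11 at 48 h, with medians of 0.09 and -0.04. Of 19 further degradation genes, Man1b1, a mannosidase that trims glycans of failed proteins, read 10.5, 13.4 and 26.9, 2.57-fold of oil at 48 h. The medians were 0.29 and 0.13, with 15 genes above oil at 24 h and 13 at 48 h. Of 17 further channel, signal peptidase and signal recognition genes, Srprb, a subunit of the receptor that docks ribosomes, read 67.0, 138 and 179, 2.05-fold and 2.67-fold. The medians of these 17 were 0.20 and 0.22, with 12 above oil at each time. The 3 kept probe sets of Srprb spanned log2 0.32 to 1.04 at 24 h and 0.36 to 1.42 at 48 h. None of the 14 N-glycosylation genes was 2-fold different. They had medians of 0.10 and 0.21, with 13 above oil at 24 h and 11 at 48 h. With 1 past 2-fold, the 30 genes of transport to the Golgi had medians of 0.23 and 0.32. Above oil were 23 at 24 h and 23 at 48 h, not all the same genes. Among them Tmed9, a cargo receptor of these vesicles, read 215, 574 and 386, 2.67-fold of oil at 24 h, and its other kept probe set gave log2 1.14 and 1.34.

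The list for the PERK branch held larger single ratios than the folding genes, and which kinase acts upstream of them was not tested. Of its 10 genes compared, Trib3, a pseudokinase induced by this branch, read 21.2, 25.1 and 112, 5.29-fold of oil at 48 h, and its other kept probe set gave log2 1.47 and 3.14. Ddit3 (CHOP), its best known transcription factor, read 106, 204 and 412, 3.89-fold, but its other kept probe set gave log2 -0.14 at 24 h and 0.78 at 48 h. Atf3, a transcription factor of many stress responses, read 28.1, 58.0 and 82.6, 2.94-fold. Counts past 2-fold were 1 higher and 1 lower at 24 h, against 2.35% and 2.48% of all genes, and 3 higher at 48 h, against 3.72%. The 1 lower at 24 h was Chac1, which read 798, 171 and 670. The medians were 0.18 and 0.31, and 7 of 10 read above oil at each time, against 54% and 50.6% of all genes. The 6 further stress transducers had medians of -0.01 and 0.10, and the 20 cytosolic chaperones had 0.19 and 0.23, with none past 2-fold in either list. At 24 h and 48 h, 3 and 4 of the 6 transducers read above oil, and 16 and 15 of the 20 cytosolic chaperones did. The 13 sarcoplasmic reticulum calcium genes had medians of 0.24 and 0.20, and 9 read above oil at each time. Among them Casq2, the cardiac and slow-fibre calcium store protein, read 187, 221 and 471, 2.52-fold of oil at 48 h.

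**Figure D5:**
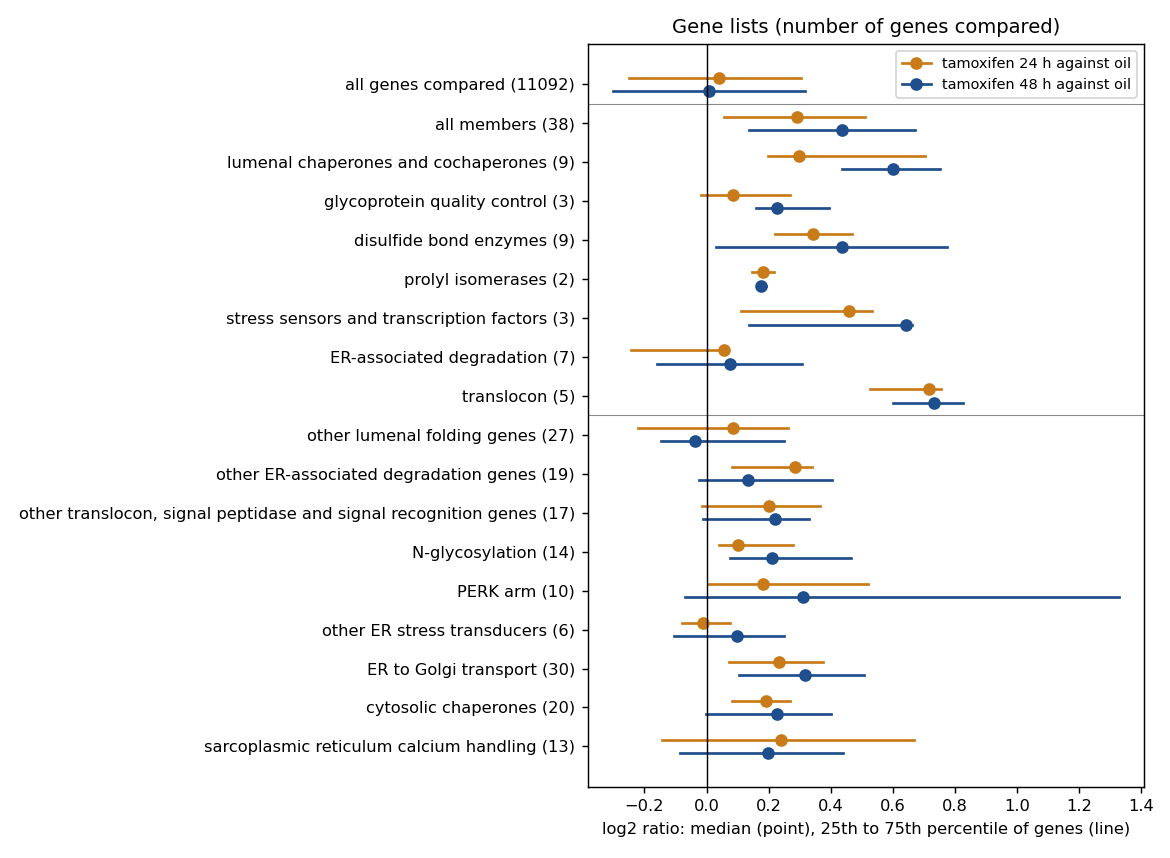
Median log2 ratio to oil (points) and the 25th to 75th percentile of genes (lines, horizontal axis) at 24 h and 48 h for the folding genes, their roles and the other lists, with the number of genes compared beside each name. The channel genes have the highest median of the folding roles (0.72 and 0.73), and further lumenal folding genes lie near 0 (0.09 and -0.04).

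Markers of muscle fibres and of other cell types were read beside these values. The 8 fast fibre markers, all present, summed to 73095 in oil, 69818 at 24 h and 72057 at 48 h of scaled intensity, with medians of -0.08 and -0.01. The 7 fibroblast markers summed to 14537, 13038 and 13487, with medians of -0.11 and -0.15. Col1a1, a collagen chain among them, read 536, 943 and 1211, 2.26-fold of oil at 48 h, while its other kept probe set gave log2 0.08 and 0.13. Of 7 markers of B and plasma cells 2 were compared, summing to 253, 299.5 and 286. Jchain, the joining chain of plasma cell antibodies, read 21.6, 13.4 and 12.1, and Ighm read 232, 286 and 274. The 8 macrophage markers summed to 2402, 2394 and 1887, and 3 of 5 neutrophil markers to 169, 105 and 59.5. The 5 endothelial markers summed to 667, 734 and 555.5, 2 of 5 adipocyte markers to 4486, 5105 and 3831, and the 4 satellite cell markers to 173, 214 and 243. Of these 4, Cdh15 read above oil at 48 h and Pax7, Myf5 and Vcam1 below it (log2 -0.45, -0.35 and -0.60), and their median was -0.40. The 1 Schwann cell marker of 4 that was compared read 1280, 1101 and 1112, and the 1 erythroid marker of 4 read 39.1, 35.7 and 38.4. No compared marker was at the intensity floor. The part of these cells in the folding gene readings was not tested.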

How the data were processed

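The deposited series table holds the authors' processed intensity per probe set on a linear scale for the 3 arrays. The probe summary step: not given in the sources used here. RNA was isolated with Trizol and a column, per the labels' protocols. The 64 control probe sets of 45101 were dropped. Probe sets with a mean percentile rank of at least 0.5 were kept (21804), each array was scaled to a common median over them (factors 1.01, 0.944 and 1.05) and values under 4.05, the 25th percentile, were set to that floor before log2. The deposited medians were 15.2, 13.2 and 13.8. A gene with several kept probe sets was read from the one ranked highest on average. Symbols follow RefSeq GRCm38.p6 through Entrez identifiers, and Ero1l and Ero1lb were matched through synonyms.

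With 1 array per group, the number of arrays limits the precision, and sizes are described without tests. Genes given in full were those past 2-fold and the 12 largest at 48 h, the rest by role. Members, lists and naming rule were chosen with earlier results of these data known; the 1.5-fold rule, scaling on all probe sets and the free-letter ERSE were chosen after seeing the data. Steps were tested on simulated data. Python 3.11.15, pandas 2.3.3, numpy 2.4.6 and statsmodels 0.14.6 were used.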

Additional observations from a re-analysis of the deposited data

Results flagged for a closer look

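For 2 folding genes the tamoxifen arrays lay on opposite sides of oil, below it at 24 h and above it at 48 h. Dnajb9, the BiP cochaperone that restrains IRE1, had log2 ratios of -0.04 and 0.44, a difference between times of 0.47. Canx, the membrane lectin, had -0.12 and 0.09, a difference of 0.22. Both differences were not tested, with 1 array per time, and the technical SD between probe sets of a gene for this contrast was 0.433. Both 24 h values also changed side with the scaling of the arrays.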

How the results depend on the processing

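The 38 folding genes were recomputed under 12 alternatives, 11 planned and 1 added. The count at least 2-fold higher at 24 h was 0, and became 1 under cyclic loess and 7 with scaling on all probe sets; at 48 h it was 4 and ran from 2, with a pseudocount of 16, to 6, with the median over kept probe sets. The 1 gene lower at 48 h became 0 with that pseudocount, with a filter at rank 0.75 and with symbols as annotated, the last 2 because Ero1lb was then not included. The median log2 ratio at 24 h, 0.29, became 0.39 unscaled and 0.58 with scaling on all probe sets. At 48 h it was 0.44, and became 0.36 as a mean over kept probe sets and 0.51 with scaling on all probe sets. For 48 h against 24 h it was 0.13, and turned to -0.030 unscaled and to -0.089 with scaling on all probe sets. The distance of the members' median from that of all genes stayed between 0.20 and 0.30 at 24 h, 0.35 and 0.44 at 48 h, and 0.087 and 0.16 between the times. For unscaled values and scaling on all probe sets this distance could not change, because they differ from the main setting only by a constant factor per array. Of 450 single-gene values per comparison, 6, 4 and 2 moved by more than the technical SD, in Hyou1, Uggt1, Pdia4, Ero1lb and Sec61a1, mostly when probe sets were averaged. Many of the 450 could not move, because the filter and symbol settings leave the ratio of a kept gene as it is. Averaging can change only genes with several kept probe sets, so these small counts do not measure robustness. No paired analysis was possible because there is 1 array per group and no result comes from a test, so no replicate could be left out either. Dim probe sets such as that of Pdia4 are the least certain.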

Other observations

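Outside the folding genes, 4 compared genes held the exact ERSE in the same promoter window: Acacb, Adcy3, Alg12 and Pan2. Their median log2 ratio to oil was -0.26 at 24 h and -0.11 at 48 h, against 0.22 and 0.33 for the 9 folding genes with it. Alg12 adds mannose to the sugar chain that is later moved onto proteins in the reticulum. Among the sarcoplasmic reticulum calcium genes, Sln, a small inhibitor of the calcium pump, read 48.6 in oil, 196 at 24 h and 28.8 at 48 h, so it stood apart at 24 h alone, 4.03-fold above oil. Chac1, a glutathione-degrading enzyme of the PERK branch, read 798, 171 and 670, 4.68-fold below oil at 24 h and near it at 48 h, while Ddit3 and Trib3 of the same branch were highest at 48 h on the probe sets used. Cdh15, a cadherin of satellite cells and young fibres, read 43.5, 104 and 150, 3.46-fold of oil at 48 h, while the other 3 satellite cell markers, Pax7, Myf5 and Vcam1, read below oil then.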
